A study of Homo sapiens with 12 samples.

Results

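The 10 genes described here process and present antigen on MHC class I: PSMB8, PSMB9, TAP1, TAP2, TAPBP, ERAP1, B2M, HLA-E, HLA-F and NLRC5. They were taken as a named list out of 19775 genes measured on Affymetrix Hgu133plus2 arrays, each through the probe sets that the platform annotation gives to that gene alone. Of several such probe sets, the one with the highest mean over the 12 arrays stood for the gene. The arrays were hybridised with total RNA from PC9 cells, an established human line that derives from a lung adenocarcinoma with a mutant EGFR, and erlotinib is an inhibitor of the EGFR kinase. A stable line made with a lentiviral pre-miR-371 construct, which gives miR-371-3p and miR-371-5p, was set beside a stable GFP vector line, which in the paper's methods carries a scramble control hairpin in a copGFP vector. Both lines were treated for 24 h with 2 μM erlotinib or with DMSO, the vehicle. The 4 groups were thus pre-miR-371 cells in erlotinib, pre-miR-371 cells in DMSO, GFP vector cells in erlotinib and GFP vector cells in DMSO, with 3 arrays in each. One stable line of each kind was used, so an effect of the construct and a difference between the particular lines cannot be told apart. The labels do not say that the 3 arrays of a group came from separate cultures, whereas the paper's methods call all replicates biological, so a p-value here speaks only of how far these arrays scatter.

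MHC class I molecules show peptides from inside the cell to CD8+ T cells. The proteasome cuts proteins into peptides, the TAP transporter carries these into the endoplasmic reticulum, tapasin holds the transporter and the empty class I molecule together, and ERAP1 trims the peptides to fit. A heavy chain, such as HLA-E, and the light chain B2M then leave with the peptide for the cell surface. Interferons are the classical inducers of these genes, through factors that bind the interferon-stimulated response element (ISRE) and through NLRC5, the transactivator of class I genes.

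The labelled cell type was checked against marker genes on the log2 scale, where a mean under 6 is read here as near background. Of 10 lung epithelial markers 9 had a mean of at least 6, NKX2-1 being the exception. Only 1 of 13 leukocyte markers did so, LAPTM5, while the defining leukocyte genes PTPRC and CD3E averaged 2.82 and 4.30. The fibroblast list held 1 such gene of 10, COL1A1, and the endothelial list 1 of 7, PECAM1. Array medians lay between 4.31 and 4.41, and each array differed from every other (0 identical pairs).

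The members' promoters are shown first, because the same short motifs recur in them and because TAP2, the only member that fell, carries one too. RefSeq promoter windows of GRCh38.p14, 250 bases before to 50 after a start site, were held for 8 of the 10 genes, in 11 entries. The ISRE was searched on both strands as GAAA, any 2 bases and GAAA, and the interferon gamma-activated site (GAS) as TTCNNNGAA. The CCAAT box was searched by its 5 letters, and the NF-kB motif as GGGRNNYYCC. Here N is any base, R is A or G, and Y is C or T. Capitals mark ISRE, GAS and NF-kB matches, and each sequence runs 5′ to 3′ on the gene's own strand.

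B2M, chr15:44711267-44711566, + strand: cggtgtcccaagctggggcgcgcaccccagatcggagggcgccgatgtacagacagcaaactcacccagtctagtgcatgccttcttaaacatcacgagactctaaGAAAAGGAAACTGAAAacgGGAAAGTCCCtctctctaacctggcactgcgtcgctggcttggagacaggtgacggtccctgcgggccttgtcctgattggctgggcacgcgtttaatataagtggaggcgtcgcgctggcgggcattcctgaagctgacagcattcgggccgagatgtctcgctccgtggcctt

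TAPBP, chr6:33314029-33314328, - strand: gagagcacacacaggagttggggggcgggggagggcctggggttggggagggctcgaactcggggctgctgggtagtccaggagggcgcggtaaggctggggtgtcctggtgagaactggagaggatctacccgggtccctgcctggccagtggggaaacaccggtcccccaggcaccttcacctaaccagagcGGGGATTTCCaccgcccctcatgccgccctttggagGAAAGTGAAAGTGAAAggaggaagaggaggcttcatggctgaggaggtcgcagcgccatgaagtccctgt

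TAP1, chr6:32853655-32853954, - strand: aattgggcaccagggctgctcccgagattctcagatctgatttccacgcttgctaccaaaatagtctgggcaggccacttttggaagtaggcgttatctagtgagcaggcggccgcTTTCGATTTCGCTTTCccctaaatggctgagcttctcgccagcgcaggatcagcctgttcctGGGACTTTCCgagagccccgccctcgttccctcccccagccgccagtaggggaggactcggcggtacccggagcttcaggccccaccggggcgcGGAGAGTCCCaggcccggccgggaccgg

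TAP2, chr6:32838690-32838989, - strand: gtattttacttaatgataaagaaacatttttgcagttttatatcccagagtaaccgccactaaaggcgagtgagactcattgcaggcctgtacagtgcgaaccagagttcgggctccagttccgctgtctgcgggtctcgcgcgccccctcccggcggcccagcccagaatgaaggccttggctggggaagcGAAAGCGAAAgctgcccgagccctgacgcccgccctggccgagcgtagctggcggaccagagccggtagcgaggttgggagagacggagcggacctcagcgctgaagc

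PSMB8, second of 2 entries, chr6:32843998-32844297, - strand: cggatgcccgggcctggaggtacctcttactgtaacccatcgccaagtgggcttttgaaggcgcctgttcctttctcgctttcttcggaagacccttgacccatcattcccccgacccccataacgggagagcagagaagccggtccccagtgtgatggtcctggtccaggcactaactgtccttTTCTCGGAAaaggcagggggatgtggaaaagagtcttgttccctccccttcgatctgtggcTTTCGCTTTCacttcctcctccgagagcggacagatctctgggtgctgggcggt

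An ISRE match lay in 7 of the 11 windows, 1 in each of 7 genes: B2M, TAPBP, TAP1, TAP2, PSMB8, HLA-F and ERAP1. Over all 35116 promoter windows of this length, 3.57% held one. In B2M, TAPBP and TAP1 there were 2 matches that overlap each other by 4 bases. The PSMB9 window held none. Its start lies 488 bases from that of TAP1, on the opposite strand, and the windows of these genes share 13 bases. Whether the TAP1 matches act on PSMB9 was not tested. An NF-kB match lay in 4 of the 11 windows (B2M, TAPBP, TAP1 and ERAP1), against 11.3% of all windows, and a GAS match in 2 (PSMB8 and TAP1), against 7.66%. CCAAT boxes were in 5 of the 11 windows, against 34.6% of all windows. ERAP1, PSMB8 and TAP1 had 2 windows each. Along chromosome 6 the annotation lists HLA-DOB, TAP2, PSMB8, TAP1, PSMB9, HLA-DMB and HLA-DMA as neighbours in that order. These matches describe letters, and binding was not measured.

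The mature miRNA of the construct whose targets the paper predicted is given with its seed, bases 2 to 8, in capitals. The other mature miRNA of the construct is not shown. Whether either miRNA sets the lines apart was not tested. No member is on the paper's sheet of predicted targets of the miRNA shown, and that sheet does not cover the other.

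hsa-miR-371a-3p, chr19:53787716-53787738, + strand, GRCh38.p14, RefSeq: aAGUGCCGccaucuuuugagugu

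Erlotinib raised 9 of the 10 genes and lowered 1, TAP2, in both lines. The rise ranged between 1.66-fold for TAP1 and 6.20-fold for PSMB9 in pre-miR-371 cells, and between 1.65-fold for B2M and 7.62-fold for PSMB9 in GFP vector cells. All 10 passed the adjusted p of 0.05 and a fold of 1.5 in each line through the probe set used. When the probe sets of each gene were averaged instead, all 10 passed the adjusted p, while ERAP1 in both lines and TAP2 in pre-miR-371 cells came to lie under the fold of 1.5. The background to this count is high. Of all genes tested, 47.0% passed the adjusted p in pre-miR-371 cells (24.8% higher and 22.2% lower) and 49.8% in GFP vector cells (26.5% higher and 23.4% lower). Of the 9650 genes with a mean of at least 6, as all members had, 3891 were higher and 3841 lower in pre-miR-371 cells when tested alone. In GFP vector cells 3907 of these 9650 genes were higher and 4040 lower, so most genes at such levels passed in either line. With the fold of 1.5 added, 21.9% passed in pre-miR-371 cells (12.6% higher and 9.33% lower) and 25.8% in GFP vector cells (14.1% higher and 11.7% lower). The median change of the members was 1.32 in pre-miR-371 cells and 1.52 in GFP vector cells on the log2 scale, against -0.03 and 0.00 over all genes in the same lines. Values on erlotinib and DMSO arrays did not overlap for any member in either line, as was so for 55.8% of all genes in pre-miR-371 cells and 54.1% in GFP vector cells. As these are bulk samples, a change in RNA per cell and a change in the share of cells that express a gene cannot be told apart.

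**Figure D1:**
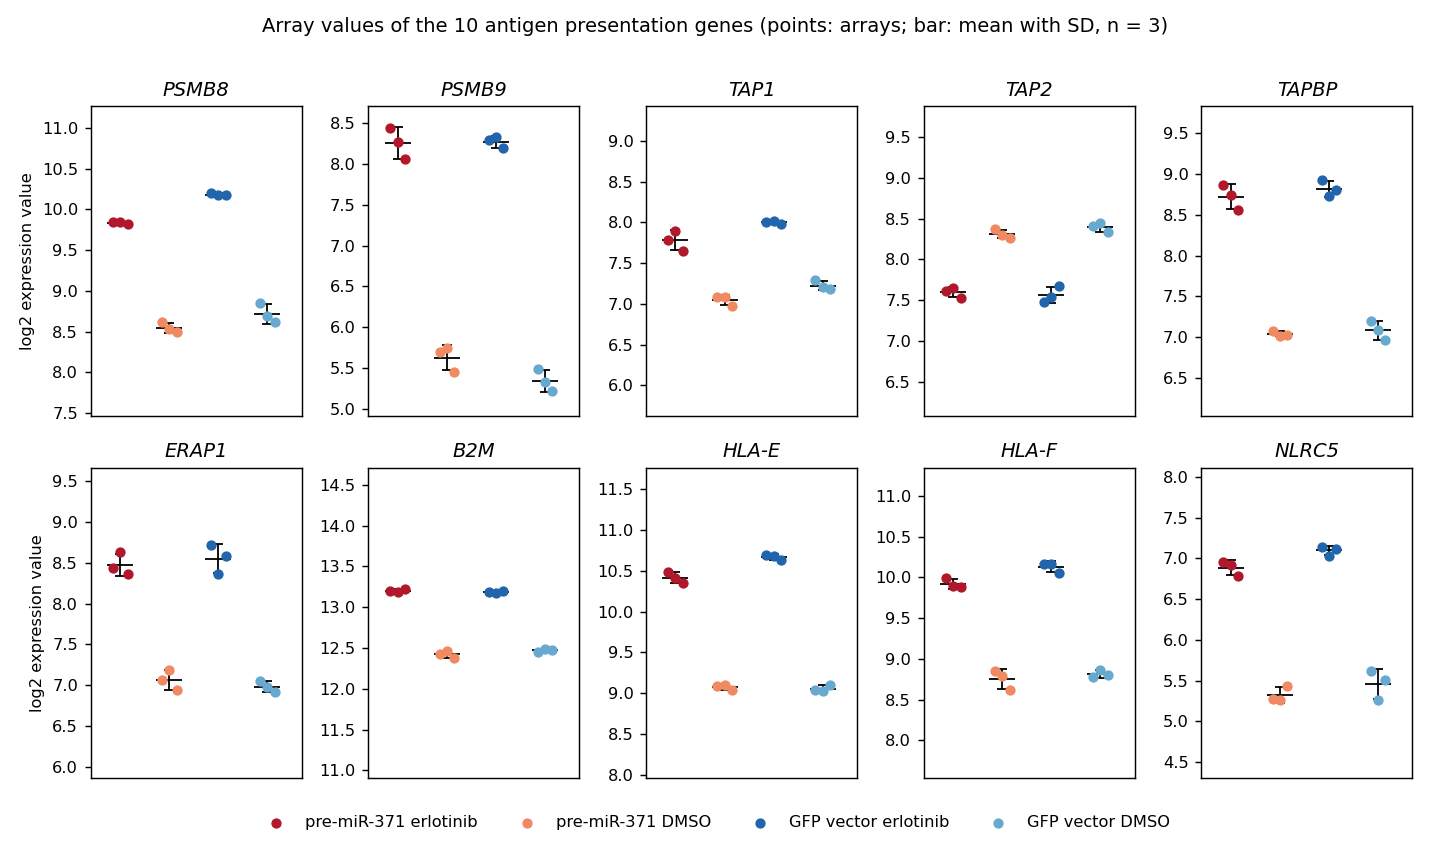
Log2 expression value of each member (vertical axis, the same span of log2 units in every panel) on each array, by group; points are arrays and the bar is the mean with its SD (n = 3). In both lines the erlotinib arrays lie above the DMSO arrays for 9 genes and below them for TAP2.

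PSMB8 and PSMB9 encode catalytic subunits of the immunoproteasome, the form of the proteasome whose cuts favour class I peptides. PSMB9 read 8.45, 8.27 and 8.06 on the log2 scale in pre-miR-371 cells in erlotinib, against 5.69, 5.74 and 5.45 in the same cells in DMSO. In GFP vector cells it read 8.29, 8.34 and 8.19 in erlotinib and 5.48, 5.33 and 5.21 in DMSO. The erlotinib arrays of the lines overlapped, and every one of them was more than 2 log2 units above every DMSO array. The change was 2.63 ± 0.11 in pre-miR-371 cells and 2.93 ± 0.11 in GFP vector cells (SE, n = 3 arrays a group), with limma adjusted p of 1.51e-09 and 4.42e-10. Its DMSO values were below 6, so the size of its change is less certain than the direction. PSMB8 read 9.85, 9.85 and 9.82 in erlotinib and 8.62, 8.53 and 8.49 in DMSO in pre-miR-371 cells. The GFP vector arrays of PSMB8 read 10.20, 10.17 and 10.18 in erlotinib and 8.85, 8.69 and 8.62 in DMSO. All 3 pre-miR-371 arrays in erlotinib were thus under all 3 GFP vector arrays in erlotinib. PSMB8 rose by 1.29 ± 0.06 in pre-miR-371 cells and 1.46 ± 0.06 in GFP vector cells (limma adjusted p = 7.18e-09 and 1.81e-09).

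The immunoproteasome subunits take the places of PSMB5, PSMB6 and PSMB7 in the core of the proteasome, and PSMB10 is the remaining inducible subunit. PSMB10 rose by 1.42 in pre-miR-371 cells and 1.61 in GFP vector cells. PSME1, a subunit of the PA28 activator, rose by 0.97 in pre-miR-371 cells and 1.20 in GFP vector cells. POMP, which helps the core assemble, fell by 0.30 in each line, with limma adjusted p of 0.000679 in pre-miR-371 cells and 0.000628 in GFP vector cells. Among 13 constitutive core subunits none was higher (0 of 13), and 7 were lower in pre-miR-371 cells and 10 in GFP vector cells, none past a fold of 1.5. PSMB5 fell by 0.42 in pre-miR-371 cells and 0.33 in GFP vector cells, and PSMB7 by 0.27 and 0.29 in the same lines. PSMB6 changed by -0.04 in pre-miR-371 cells and -0.05 in GFP vector cells, neither past the test.

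**Figure D2:**
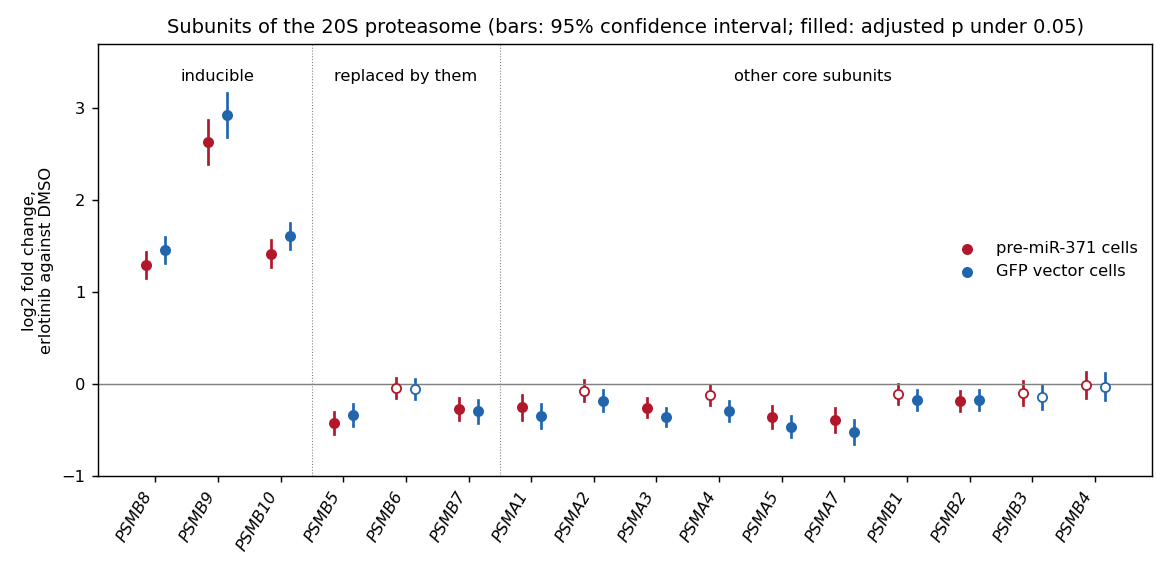
Log2 fold change of proteasome core subunits with erlotinib against DMSO (vertical axis), for pre-miR-371 cells and GFP vector cells; bars are 95% confidence intervals and filled points passed an adjusted p of 0.05. PSMB8, PSMB9 and PSMB10 stand above 1, and the 13 constitutive subunits lie below 0.

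Each inducible subunit was also set against the subunit it replaces on the same array. The difference between 2 probe sets is no ratio of proteins or transcripts, but its change between arrays shows that the subunits changed unequally. PSMB8 minus PSMB5 changed with erlotinib by 1.71 in pre-miR-371 cells and 1.79 in GFP vector cells on the log2 scale. PSMB9 minus PSMB6 changed by 2.67 in pre-miR-371 cells and 2.98 in GFP vector cells. PSMB10 minus PSMB7 changed by 1.69 in pre-miR-371 cells and 1.91 in GFP vector cells. In an exact two-sided permutation test of treatment within lines each of the 3 pairs reached p = 0.005, the smallest that 400 permutations allow, and 0.005 after adjustment over the pairs. Any values whose treatments do not overlap, in the same direction in both lines, give this p. The test therefore adds nothing to the changes listed.

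TAP1 and TAP2 are the subunits of the peptide transporter, and erlotinib moved them in opposite directions. TAP1 read 7.79, 7.90 and 7.65 in erlotinib and 7.08, 7.08 and 6.98 in DMSO in pre-miR-371 cells. GFP vector cells gave TAP1 values of 8.00, 8.01 and 7.98 in erlotinib and 7.29, 7.20 and 7.18 in DMSO. Within either treatment, the pre-miR-371 arrays were all below the GFP vector arrays. TAP1 rose by 0.73 ± 0.07 in pre-miR-371 cells and 0.77 ± 0.07 in GFP vector cells (SE, limma adjusted p = 1.57e-06 and 7.80e-07). TAP2 read 7.62, 7.65 and 7.53 in erlotinib and 8.37, 8.30 and 8.26 in DMSO in pre-miR-371 cells. In GFP vector cells TAP2 read 7.47, 7.54 and 7.67 in erlotinib, against 8.41, 8.44 and 8.33 in DMSO. The lines overlapped within each treatment, and the erlotinib arrays were the low ones in both. TAP2 fell by 0.71 ± 0.07 in pre-miR-371 cells and 0.83 ± 0.07 in GFP vector cells (SE, limma adjusted p = 1.41e-06 and 2.79e-07).

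The fall of TAP2 did not rest on a single probe set. Of its 4 probe sets, 3 passed the test as lower in each line and 0 as higher. The second brightest changed by -0.85 in pre-miR-371 cells and -1.06 in GFP vector cells, and the next, with a mean of 4.47, by -0.48 and -0.62 in the same lines. The dimmest averaged 2.97, near background, and did not pass in either line.

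TAPBP encodes tapasin, which bridges the transporter and the class I molecule. It read 8.87, 8.74 and 8.56 in erlotinib and 7.07, 7.01 and 7.03 in DMSO in pre-miR-371 cells. The GFP vector arrays read 8.93, 8.73 and 8.81 in erlotinib and 7.20, 7.09 and 6.96 in DMSO. The lines overlapped within each treatment, and the treatments were clearly apart. TAPBP rose by 1.68 ± 0.09 in pre-miR-371 cells and 1.74 ± 0.09 in GFP vector cells (SE, limma adjusted p = 1.05e-08 and 5.59e-09). ERAP1, the aminopeptidase of the endoplasmic reticulum, read 8.44, 8.63 and 8.37 in erlotinib and 7.06, 7.18 and 6.94 in DMSO in pre-miR-371 cells. In GFP vector cells ERAP1 read 8.72, 8.36 and 8.58 in erlotinib and 7.05, 6.98 and 6.92 in DMSO. Here too the lines overlapped and the treatments did not. ERAP1 rose by 1.42 ± 0.10 in pre-miR-371 cells and 1.57 ± 0.10 in GFP vector cells (SE, limma adjusted p = 1.42e-07 and 4.19e-08). Only 1 of its 5 probe sets had a mean of at least 6, and with the mean of all its probe sets ERAP1 rose 1.35-fold in pre-miR-371 cells and 1.39-fold in GFP vector cells. With the mean of its 3 probe sets TAPBP rose 2.01-fold in pre-miR-371 cells and 2.10-fold in GFP vector cells.

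Of 14 further genes of peptide trimming and loading, 10 were higher and 4 lower with erlotinib in each line, with medians of 0.39 in pre-miR-371 cells and 0.38 in GFP vector cells. TAPBPL, the tapasin-related peptide editor, rose by 2.04 in pre-miR-371 cells and 2.65 in GFP vector cells. ERAP2, the partner aminopeptidase, rose by 1.57 in pre-miR-371 cells and 1.94 in GFP vector cells. The chaperone CALR rose by 0.86 in pre-miR-371 cells and 0.90 in GFP vector cells, and the oxidoreductase PDIA3 by 0.68 and 0.84 in the same lines. Among the 4 that fell, THOP1, a cytosolic peptidase which degrades peptides, fell by 0.78 in pre-miR-371 cells and 1.22 in GFP vector cells, and BLMH, bleomycin hydrolase, fell by 0.77 and 0.96 in the same lines. NPEPPS, a cytosolic aminopeptidase of the same list that is named after its values were seen, rose by 0.56 in pre-miR-371 cells and 0.45 in GFP vector cells (limma adjusted p = 3.05e-05 and 0.000188). For the other named genes of this list, limma adjusted p was at most 2.64e-06, the value of CALR in pre-miR-371 cells.

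**Figure D3:**
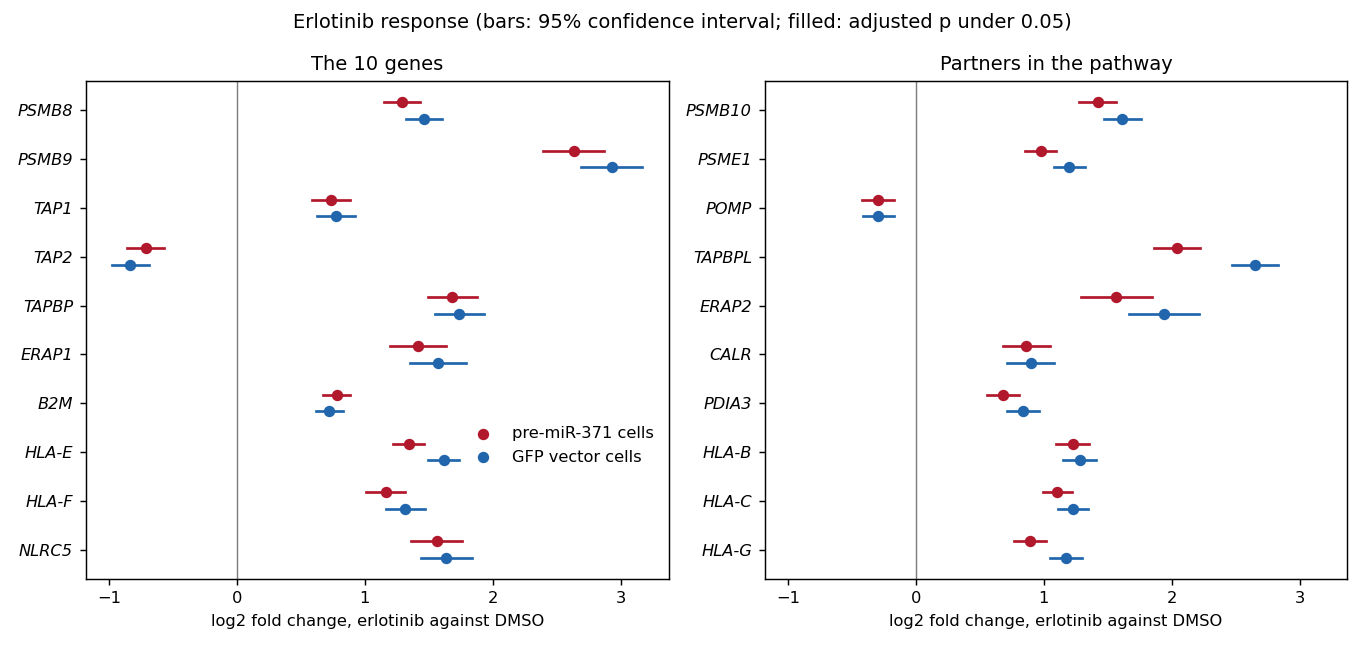
Log2 fold change with erlotinib against DMSO (horizontal axis) of the 10 members and of their partners in the pathway, in pre-miR-371 cells and GFP vector cells; bars are 95% confidence intervals and filled points passed an adjusted p of 0.05. TAP2 and POMP are the genes plotted left of 0. The partners plotted are a selection, and the 4 genes of peptide trimming and loading that fell are not among them.

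B2M is the light chain shared by all classical class I molecules. It read 13.20, 13.18 and 13.22 in erlotinib and 12.43, 12.46 and 12.37 in DMSO in pre-miR-371 cells, and the GFP vector arrays read 13.19, 13.18 and 13.20 in erlotinib and 12.45, 12.49 and 12.47 in DMSO. The replicates were tight and the lines overlapped within each treatment. B2M rose by 0.78 ± 0.05 in pre-miR-371 cells and 0.72 ± 0.05 in GFP vector cells (SE, limma adjusted p = 4.57e-08 and 6.75e-08). Its values lay near the top of the arrays' scale, where the highest probe sets reached 14.26 to 14.44.

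HLA-E, a heavy chain read by the NKG2 receptors of NK cells, read 10.49, 10.42 and 10.35 in erlotinib and 9.09, 9.10 and 9.04 in DMSO in pre-miR-371 cells. In GFP vector cells HLA-E read 10.70, 10.69 and 10.63 in erlotinib and 9.04, 9.03 and 9.10 in DMSO. The pre-miR-371 arrays were all below the GFP vector arrays in erlotinib, whereas the lines overlapped in DMSO. HLA-E rose by 1.34 ± 0.05 in pre-miR-371 cells and 1.62 ± 0.05 in GFP vector cells (SE, limma adjusted p = 1.44e-09 and 2.19e-10). HLA-F, another non-classical heavy chain, read 9.99, 9.89 and 9.88 in erlotinib and 8.86, 8.79 and 8.62 in DMSO in pre-miR-371 cells. The GFP vector arrays of HLA-F read 10.17, 10.17 and 10.06 in erlotinib and 8.78, 8.86 and 8.80 in DMSO. The pattern was that of HLA-E, with the lines apart in erlotinib and overlapping in DMSO. HLA-F rose by 1.16 ± 0.07 in pre-miR-371 cells and 1.32 ± 0.07 in GFP vector cells (SE, limma adjusted p = 3.33e-08 and 8.17e-09).

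The main probe sets of HLA-E and HLA-F are of a kind (x_at) that may bind transcripts of several related genes, and class I heavy chains are close paralogs, so their values may not be those of 1 gene each. HLA-E also has a probe set outside that kind, which rose by 1.92 in pre-miR-371 cells and 2.35 in GFP vector cells (limma adjusted p = 2.76e-09 and 3.10e-10 over every probe set). The classical heavy chain HLA-B rose by 1.23 in pre-miR-371 cells and 1.28 in GFP vector cells, and HLA-C by 1.10 and 1.23 in the same lines. HLA-G rose by 0.89 in pre-miR-371 cells and 1.17 in GFP vector cells. All 3 were read from x_at probe sets. Over all 25 probe sets of the 10 members, 18 were higher and 3 lower in pre-miR-371 cells, and 19 higher and 3 lower in GFP vector cells, the lower ones all being those of TAP2. Of all 41091 probe sets tested, 8376 were higher and 8053 lower in pre-miR-371 cells, and 8862 higher and 9104 lower in GFP vector cells.

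**Figure D4:**
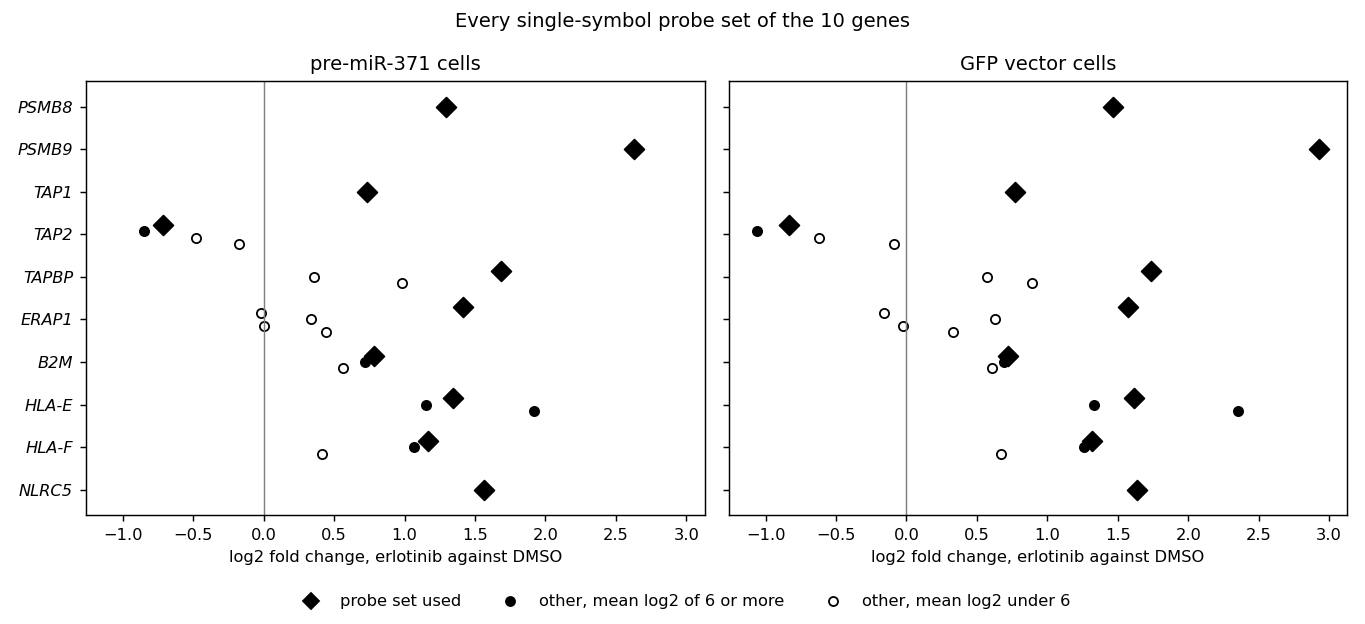
Log2 fold change with erlotinib against DMSO (horizontal axis) of each of the 25 probe sets given to 1 member alone, in pre-miR-371 cells and in GFP vector cells; the diamond is the probe set used, and open circles had a mean log2 value under 6. The TAP2 probe sets all lie left of 0, and the dim ERAP1 probe sets lie below the one used, between -0.16 and 0.63.

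NLRC5 read 6.96, 6.92 and 6.78 in erlotinib and 5.27, 5.27 and 5.44 in DMSO in pre-miR-371 cells. The GFP vector arrays read 7.15, 7.03 and 7.12 in erlotinib and 5.62, 5.26 and 5.50 in DMSO. All DMSO arrays lay under 6 and all erlotinib arrays above it. NLRC5 rose by 1.56 ± 0.09 in pre-miR-371 cells and 1.64 ± 0.09 in GFP vector cells (SE, limma adjusted p = 3.11e-08 and 1.45e-08), and as for PSMB9 the size is less certain because the DMSO values are low.

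Other regulators of class I genes were mixed, with 6 of 18 higher and 5 lower in each line. IRF9, the DNA-binding part of the factor ISGF3 that binds the ISRE, rose by 2.32 in pre-miR-371 cells and 2.70 in GFP vector cells, with DMSO means of 5.61 and 5.66, near background. IRF1, which binds the same element, rose by 1.26 in pre-miR-371 cells and 1.55 in GFP vector cells. RFX5, a subunit of the complex on the X box of MHC promoters, rose by 1.10 in pre-miR-371 cells and 1.37 in GFP vector cells, and STAT3 by 1.22 and 1.13 in the same lines. The Polycomb subunits EZH2 and SUZ12, which silence chromatin, fell. EZH2 fell by 0.76 in pre-miR-371 cells and 1.30 in GFP vector cells, and SUZ12 by 0.41 and 0.67 in the same lines.

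Among 19 interferon ligands, receptors and signalling genes, 7 were higher in each line, and 4 were lower in pre-miR-371 cells and 3 in GFP vector cells. The receptor chain IFNAR1 rose by 1.08 in pre-miR-371 cells and 1.16 in GFP vector cells, and IFNGR1 by 0.89 in each. IL10RB, a chain of the interferon lambda receptor, rose by 1.40 in pre-miR-371 cells and 1.32 in GFP vector cells. The kinase JAK1 rose by 0.91 in pre-miR-371 cells and 0.97 in GFP vector cells, and TYK2 by 0.76 and 0.73 in the same lines. SOCS1, an inhibitor of this signalling, fell by 1.91 in pre-miR-371 cells and 1.65 in GFP vector cells. The 6 interferon ligands read averaged between 2.30 and 3.60, near background. IFNE was the 1 ligand past the test in pre-miR-371 cells, with a change of -0.29, and none passed in GFP vector cells (0 of 6); IFNE is named after its values were seen.

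Marker lists of other cell types moved in part with treatment. The summed linear level of the 13 leukocyte markers was 350.6 to 356.2 in pre-miR-371 cells in erlotinib and 525.2 to 572.6 in DMSO, and 315.0 to 347.6 in GFP vector cells in erlotinib and 420.7 to 463.7 in DMSO. LAPTM5, the brightest, fell by 1.98 in pre-miR-371 cells and 1.43 in GFP vector cells. Apart from it, 1 of the 13 passed in each line, ITGAM, which is named after its values were seen and rose by 1.28 in pre-miR-371 cells and 1.14 in GFP vector cells at a mean of 5.24. The sum of the 7 endothelial markers was 603.0 to 626.0 in pre-miR-371 cells in erlotinib and 351.5 to 361.0 in DMSO, and 691.3 to 726.5 in GFP vector cells in erlotinib and 356.8 to 371.1 in DMSO. The brightest of them, PECAM1, rose by 1.03 in pre-miR-371 cells and 1.27 in GFP vector cells, while the defining endothelial genes CDH5 and KDR averaged 5.17 and 2.43. VWF, another of the list that is named after its values were seen, averaged 4.75 and rose by 0.52 in pre-miR-371 cells and 0.48 in GFP vector cells (limma adjusted p = 0.00882 and 0.0128). None of the 10 fibroblast markers passed in either line (0 of 10). The part of other cells in the members' change was not tested.

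The comparison of the lines asks how the pre-miR-371 line differs from the GFP vector line in these genes, with and without the drug. In erlotinib, 3 of the 10 members were lower in pre-miR-371 cells than in GFP vector cells, 0 were higher, and none reached a fold of 1.5 (0 of 10). Of all genes, 16.0% passed in this comparison, 9.46% as lower and 6.5% as higher, and 1.24% passed with the fold of 1.5. All 10 members had a mean of at least 6. Of the 9650 genes with such a mean, tested alone, 2355 were lower and 1448 higher, a larger share than over all genes. The excess of lower genes depended on the normalization. With quantile normalization repeated, 1765 of all 19775 genes were lower and 1759 higher. Of the 3 lower members PSMB8 and HLA-E kept their calls in that setting, and TAP1 did not. PSMB8 was lower by 0.34 on the log2 scale (change -0.34, 95% confidence interval -0.48 to -0.20, limma adjusted p = 0.00493). HLA-E was lower as well (change -0.25, interval -0.37 to -0.13, limma adjusted p = 0.00989). TAP1 changed by -0.22 (interval -0.37 to -0.07) with limma adjusted p = 0.0467, a call lost when any of 10 of the 12 arrays was left out. Without pre-miR-371 erlotinib replicate 3 its change was -0.16 with adjusted p = 0.164.

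HLA-F and NLRC5 differed by -0.21 each in erlotinib without passing (limma adjusted p = 0.0588 and 0.146). Between the lines, erlotinib arrays did not overlap for 5 members, PSMB8, TAP1, HLA-E, HLA-F and NLRC5, and in all 5 pre-miR-371 cells were the lower ones. This was so, in either direction, for 36.0% of all genes. The other 5 members differed by -0.10 to 0.04, and the widest of their intervals was that of PSMB9, from -0.25 to 0.22. The HLA-E probe set that is not of the x_at kind was lower by 0.53 in pre-miR-371 cells (change -0.53, limma adjusted p = 0.00369 over every probe set).

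**Figure D5:**
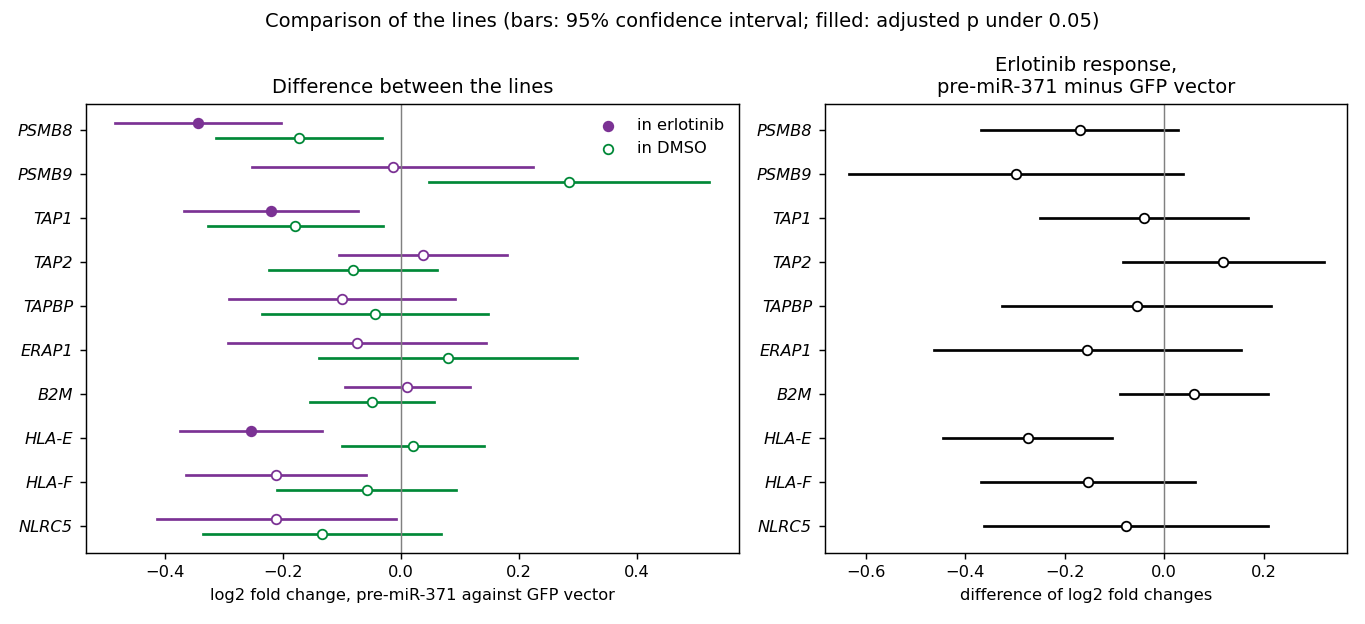
Left, log2 fold change of each member in pre-miR-371 cells against GFP vector cells (horizontal axis) in erlotinib and in DMSO; right, erlotinib response in pre-miR-371 cells minus that in GFP vector cells. Bars are 95% confidence intervals and filled points passed an adjusted p of 0.05, as PSMB8, TAP1 and HLA-E did in erlotinib.

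In DMSO none of the members passed between the lines in limma (0 of 10), against 5.25% of all genes. At an unadjusted limma p under 0.05, 3 did so, TAP1, PSMB8 and PSMB9, but the share of all genes at that limit was not counted. The methods' t-test at its unadjusted threshold took 1 member, TAP1. That test took 1265 of all 19775 genes as higher and 2434 as lower. The changes were -0.18 for TAP1 (interval -0.33 to -0.03), -0.17 for PSMB8 (interval -0.31 to -0.03) and 0.28 for PSMB9 (interval 0.05 to 0.52). PSMB9 was thus the only one of the 3 with a higher mean in pre-miR-371 cells, at DMSO values near background. TAP1 was the 1 member whose DMSO arrays did not overlap between the lines, against 28.4% of all genes.

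Averaged over both treatments, 2 members were lower in pre-miR-371 cells, against 21.1% of all genes that passed in either direction and 13.1% as lower. Of the 9650 genes with a mean of at least 6, as all members had, 3093 were lower and 1358 higher when tested alone. The 2 members were PSMB8 (change -0.26, limma adjusted p = 0.00274) and TAP1 (change -0.20, limma adjusted p = 0.0133). HLA-E missed the threshold, with a change of -0.12 and limma adjusted p = 0.0519.

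The erlotinib response itself was then compared between the lines. No member passed in limma (0 of 10, against 2.0% of all genes), and 1, HLA-E, did so at an unadjusted p under 0.05. The share of all genes at that unadjusted limit was not counted. For HLA-E the response in pre-miR-371 cells minus that in GFP vector cells was -0.27 (interval -0.44 to -0.10, limma adjusted p = 0.106). For PSMB9 it was -0.30 (interval -0.63 to 0.04, limma adjusted p = 0.399) and for PSMB8 -0.17 (interval -0.37 to 0.03). Over all 10 members the intervals ran from -0.63 to 0.32. The median of the 10 differences was -0.12, against -0.01 over all genes.

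Partners in the pathway gave the following line differences in erlotinib. PSMB10 was lower in pre-miR-371 cells (change -0.34, limma adjusted p = 0.00552), as were PSME1 (-0.18, 0.0422) and HLA-G (-0.30, 0.00518). Regulators went both ways, with 3 of 18 lower and 3 higher. IRF9 and IRF1 were lower, with changes of -0.42 and -0.38 and limma adjusted p of 0.022 and 0.0325, whereas EZH2 and SUZ12 were higher, with changes of 0.47 and 0.22 and limma adjusted p of 0.000532 and 0.0219. Of the 19 interferon genes 2 were lower and 1 was higher, the last being the receptor chain IFNLR1 (change 0.45, limma adjusted p = 0.0182), which is named after its values were seen. TAPBPL was lower with a change of -0.33 (limma adjusted p = 0.0197), and JAK1 with -0.37 (limma adjusted p = 0.00436). Of the 13 constitutive core subunits of the proteasome, 3 were higher in pre-miR-371 cells in erlotinib and 0 lower. In DMSO JAK1 was lower as well (change -0.31, limma adjusted p = 0.0252), as was THOP1 (-0.42, 0.0094), while ERAP2 was higher (0.51, 0.0398). No partner of the immunoproteasome (0 of 3), heavy chain (0 of 3) or regulator (0 of 18) passed in DMSO.

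Genes whose values followed each member most closely over the 12 arrays were found by Pearson's r among 9650 genes with a mean of at least 6. The arrays share their treatment, so the values describe likeness across 4 groups and carry no test. The 3 most alike of each member had r of 0.994 to 0.999. PSMB8 was followed by ZKSCAN1, MGST2 and PSMB10, and PSMB9 by IDH2, QPRT and S100P. TAP1 was followed by HIGD2A, GPRC5B and METRNL, and TAP2 by GLRX3, KANSL2 and SRPX2, which were lower with erlotinib. TAPBP was followed by BBS2, ID3 and CRIP1, and ERAP1 by CHST15, NMI and SLC9A8. B2M was followed by CD24, ARID5B and BCL6, and HLA-E by CORO1B, KRT4 and MUC20. HLA-F was followed by LMBRD1, CAMK2G and RALGDS, and NLRC5 by BICDL1, IFT122 and PDS5B.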

How the data were processed

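Gene expression was measured on 12 arrays of PC9 stable lines, 3 per line and treatment, and samples were grouped by their labels. For each array the authors deposited a log2 value per probe set. RMA and affy are named in the submitters' processing notes and quantile normalization in the paper's methods, with versions not given in the sources used here. Background correction and normalization were thus already in the values, which can compress low values. The number of arrays limits the precision. Probe sets were named through the platform annotation, updated to current symbols by identifier (19735 of 19775 genes). Of 54675 probe sets, 41097 had 1 symbol, and the 1801 with several and 11777 with none were left out, as were 62 controls.

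Fold changes with their errors and p-values came from limma 3.58.1 in R 4.3.3 (lmFit with 1 mean per group, eBayes, all 12 arrays), adjusted by Benjamini-Hochberg over 19775 genes, with a limit of 0.05. Subunit pairs were compared by an exact permutation test within lines. The fit was tested on simulated data. Plots were made in Python 3.11.15 (matplotlib 3.10.9).

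The 10 genes and the lists of partners and markers were chosen with earlier results of these data known. Named were all 10 genes with each probe set, up to 6 members per list by smallest p among those past the test, every gene of lists of 4 or fewer, the 3 genes most alike to each member, and markers with a mean of at least 6; defining markers of other cell types, constitutive subunits paired with an inducible one, and genes that differ between the lines were named besides.

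Alternatives were the mean of all probe sets, every probe set, only genes with a mean of at least 6, a fit of the compared groups alone, a replicate block, a repeat of quantile normalization, median centring, trend and robust eBayes, array weights, the methods' t-test, a fold limit of 1.5, and each array left out in turn.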

Additional observations from a re-analysis of the deposited data

Results flagged for a closer look

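Among the 107 partners in the lists, 4 genes (3.74%, against 2.0% of all genes tested) responded to erlotinib differently in the lines, by limma's test of the difference of responses, pre-miR-371 cells minus GFP vector cells. MICB, a ligand of the NK cell receptor NKG2D, fell by 0.78 in pre-miR-371 cells and 1.44 in GFP vector cells, a difference of 0.66 (limma adjusted p = 0.00782). TAPBPL rose by 2.04 in pre-miR-371 cells and 2.65 in GFP vector cells, a difference of -0.61 (limma adjusted p = 0.0223), with DMSO values near background in both lines. EZH2 fell by 0.76 in pre-miR-371 cells and 1.30 in GFP vector cells, a difference of 0.53 (limma adjusted p = 0.00926). CD274, which encodes PD-L1, fell by 2.60 in pre-miR-371 cells and 3.47 in GFP vector cells, a difference of 0.87 (limma adjusted p = 0.00832). For CD274 the lines differed in DMSO, with 7.82, 7.81 and 7.92 in pre-miR-371 cells and 8.63, 8.60 and 8.60 in GFP vector cells, and overlapped near background in erlotinib. In each of the 4 genes the response was the smaller one in pre-miR-371 cells.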

How the results depend on the processing

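The erlotinib change of every member kept its direction and its side of the threshold in each line under every alternative run (240 of 240 values a line), and so did the changes of the 3 subunit pairs, but the mean of all probe sets took the rise of ERAP1 to 0.44 in pre-miR-371 cells and 0.47 in GFP vector cells and that of TAPBP to 1.01 and 1.07 in the same lines. No called change of a member reversed (0 of the values run). The comparisons of the lines depended more on the settings. In erlotinib TAP1 lost its call also with every probe set tested, the compared groups alone, quantile normalization repeated, median centring, array weights and the methods' t-test after adjustment, with adjusted p of 0.0705 to 0.159. In erlotinib the 3 lower members became 0 with the fold of 1.5, 5 with the methods' t-test at its unadjusted threshold and 1 with that test after Benjamini-Hochberg. Of all 19775 genes these settings took 109, 3188 and 826 as lower, against 1870 in the main fit. In DMSO the count of 0 became 1 with only genes of a mean of at least 6, with trend and robust eBayes and with the methods' unadjusted t-test, and 2 with array weights. Of all 19775 genes the main fit took 320 as higher and 719 as lower in DMSO. Trend and robust eBayes took 658 and 1518, the unadjusted t-test 1265 and 2434, and array weights 1543 and 2257. Of the 9650 genes with a mean of at least 6, tested alone, 456 were higher and 1639 lower. Averaged over both treatments the 2 lower members became 0 with the fold, 5 with only genes of a mean of at least 6, 1 with quantile normalization repeated, and 4 with trend and robust eBayes or array weights. The main fit took 2588 of all 19775 genes as lower here. With the fold 38 were lower, with quantile normalization repeated 1878, with trend and robust eBayes 3244 and with array weights 3359. Of the 9650 genes with a mean of at least 6, tested alone, 3093 were lower. For the difference of responses the count of 0 became 1, HLA-E, with only genes of a mean of at least 6, trend and robust eBayes or array weights. For this difference the main fit took 284 of all 19775 genes as higher and 111 as lower. Trend and robust eBayes took 690 and 370, and array weights 621 and 445. Of the 9650 genes with a mean of at least 6, tested alone, 629 were higher and 307 lower.

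Whether replicate numbers pair the samples was not settled. Correlations of deviations ran from -0.06 to 0.20 for 18 pairs with the same number, with a median of 0.03. For 36 pairs with different numbers they ran from -0.20 to 0.11, with a median of -0.03. In every group the upper quartile of the array values fell from replicate 1 to replicate 3. The main fit held no block for the number. With the replicate block, the count of members in DMSO became 1, as PSMB9 passed (limma adjusted p = 0.0405). The block took 378 of all 19775 genes as higher and 832 as lower in DMSO. HLA-F passed with the block in erlotinib (limma adjusted p = 0.0386) and averaged over both treatments (0.0465). In erlotinib HLA-F passed also with the mean of all probe sets (0.047) and with only genes of a mean of at least 6 (0.017). It did so too with trend and robust eBayes (0.00689) and without pre-miR-371 DMSO replicate 3 (0.0393).

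With 3 arrays a group and 1 line of each kind, small line differences lie near what the arrays resolve, and PSMB9, NLRC5, TAPBPL, IRF9, MR1, HLA-DMA and VTCN1 have DMSO values near background.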

Other observations

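MHC class II genes, which present peptides from outside the cell, were near background over the 12 arrays, with 0 of 13 at a mean of at least 6, and with erlotinib 1 was higher and 0 lower in pre-miR-371 cells and 3 higher and 2 lower in GFP vector cells. HLA-DMA, the peptide exchange factor that neighbours PSMB9 on chromosome 6 beyond HLA-DMB, was above 6 on every erlotinib array. It read 6.17, 6.25 and 6.19 in erlotinib and 3.34, 3.46 and 3.56 in DMSO in pre-miR-371 cells, and 6.60, 6.40 and 6.55 in erlotinib and 3.11, 3.83 and 3.05 in DMSO in GFP vector cells. The change was 2.75 in pre-miR-371 cells and 3.19 in GFP vector cells (limma adjusted p = 3.31e-08 and 6.55e-09). CIITA, the class II transactivator, changed by -0.07 in pre-miR-371 cells and -0.11 in GFP vector cells without passing (limma adjusted p = 0.54 and 0.31); it is named after its values were seen.

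Of 12 genes that are like class I, 2 were higher with erlotinib in each line, and 4 were lower in pre-miR-371 cells and 2 in GFP vector cells. MR1, which presents vitamin B metabolites to MAIT cells, rose by 2.82 in pre-miR-371 cells and 3.11 in GFP vector cells, with DMSO means of 4.73 and 4.87, near background, so the size is less certain than the direction. HFE, the class I-like regulator of iron uptake, rose by 2.09 in pre-miR-371 cells and 2.03 in GFP vector cells. MICB was among the lower ones. Checkpoint ligands moved both ways, with 4 of 12 higher in each line, and 6 lower in pre-miR-371 cells and 5 in GFP vector cells. VTCN1, which encodes B7-H4, read 9.96, 10.15 and 10.11 in erlotinib and 4.54, 4.12 and 3.91 in DMSO in pre-miR-371 cells. In GFP vector cells VTCN1 read 10.38, 10.42 and 10.28 in erlotinib and 3.66, 3.84 and 3.45 in DMSO. The change was 5.88 in pre-miR-371 cells and 6.71 in GFP vector cells (limma adjusted p = 2.08e-11 and 6.87e-12), and all DMSO arrays were near background.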
